A study of Mus musculus with 6 samples.

Results

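The genes described here are 8 that carry or receive nerve growth signals in fat tissue: the receptor tyrosine kinase gene Ret, its co-receptor genes Gfra1 and Gfra2, the neurotrophin receptor genes Ngfr, Ntrk2 and Ntrk3, the neurotrophin gene Bdnf, and S100b. They were chosen by symbol from the 14291 genes of the authors' table, and 8 of 8 had a row there. The choice was made with the genotype difference of these same libraries in view. Their fold changes are therefore given as a description, and nothing is supported with them. The libraries hold polyA-selected RNA of mouse fat labelled epididymal white adipose tissue, 3 from Prmt5 knockout (Prmt5AKO) and 3 from wild type (Prmt5flox/flox). The wild-type mice thus carried floxed alleles. The labels leave out the Cre line and the cells it acts in, and give no age. They do not say whether each library is a different animal, so a p-value here measures library-to-library spread that may be technical.

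GDNF family ligands bind a GFRα co-receptor on the cell surface, and the pair then activates the RET kinase. Neurotrophins such as BDNF act through the Trk kinases (TrkB from Ntrk2, TrkC from Ntrk3) and through the p75 receptor encoded by Ngfr. S100B is a small calcium-binding protein of glial cells and, in mice, of brown adipocytes, from which it is released and acts on sympathetic nerve fibres. In fat, sympathetic fibres drive lipolysis and heat production.

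The 8 genes lie on 8 different chromosomes in mm10, and none shares an exonic base with another gene of the table. Ret spans 118151748 to 118197744 on chromosome 6, Ngfr 95568821 to 95587698 on chromosome 11 and S100b 76253836 to 76261319 on chromosome 10. The RefSeq promoter table (GRCm38.p6) had no start site for Ret, Gfra2 and Ntrk3. It had start sites for 5 of the 8, among them Ngfr and S100b. Their promoters, 250 bases before to 50 after the start, are shown because these genes stood higher together in the knockout. They are written 5′ to 3′ on the gene's strand, and capitals mark each match, on either strand, to 1 of 6 short motifs. The GC box was searched as GGGCGG and the CAAT box as CCAAT. The TATA box was searched as TATAAA, the cAMP response element as TGACGTCA, the E-box as CACGTG and the AP-1 site as TGANTCA.
Ngfr, chr11:95587649-95587948, minus strand: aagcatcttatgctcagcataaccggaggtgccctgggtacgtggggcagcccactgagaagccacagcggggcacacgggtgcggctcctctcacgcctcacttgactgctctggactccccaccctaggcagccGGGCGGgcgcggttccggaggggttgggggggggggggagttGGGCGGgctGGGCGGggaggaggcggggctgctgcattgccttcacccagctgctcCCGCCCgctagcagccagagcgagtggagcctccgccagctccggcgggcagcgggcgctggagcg
S100b, chr10:76253586-76253885, plus strand: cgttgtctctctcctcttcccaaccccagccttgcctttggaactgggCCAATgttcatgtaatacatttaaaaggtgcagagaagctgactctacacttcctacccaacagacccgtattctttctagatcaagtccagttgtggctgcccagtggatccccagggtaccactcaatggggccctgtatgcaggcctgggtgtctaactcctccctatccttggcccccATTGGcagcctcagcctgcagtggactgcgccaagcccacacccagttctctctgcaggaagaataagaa
The Ngfr promoter held 23 CG dinucleotides and 4 GC boxes, a motif found in 35.7% of the 32851 promoters of the table. The S100b promoter held 3 CG dinucleotides and 2 CAAT box matches, a motif found in 37.4% of promoters. The other 4 motifs (TATA box in 13.6% of promoters, cAMP response element in 1.79%, E-box in 7.15% and AP-1 site in 7.81%) had no match in either. The pair thus shared none of the 6 motifs in these windows. The same motifs occurred at genes that overlapped between the genotypes. The Ntrk2 promoter also held 23 CG dinucleotides and had 1 GC box. The Gfra1 promoter held 12 CG dinucleotides and 1 CAAT box match.

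Total counts were 17489530 to 24454163 in knockout libraries and 20746401 to 26403882 in wild-type libraries. Levels are CPM, counts scaled to library size, after TMM scaling, given for replicates 1, 2 and 3 in that order, and fold changes are knockout over wild type. The planned test was edgeR's quasi-likelihood test with genotype as its term. A second fit adds a 2-level term that sets replicate 1 of each genotype against the other replicates, called the batch term here. That fit gives the fold changes and p-values of the authors' deposited table, but no source used here says what the grouping was. A gene was called at a Benjamini-Hochberg adjusted p under 0.05 over all 14291 genes. The genotype-only fit called 0 genes in either direction, which is 0% of those tested, with 1233 (8.63%) at an unadjusted p under 0.05. The batch-term fit called 55 higher and 17 lower (0.385% and 0.119% of those tested), and DESeq2 on genotype alone 171 and 100 (1.2% and 0.7%). Genotype was not the largest difference between libraries: knockout replicate 1 and wild-type replicates 1 and 3 lay on one side of the first principal component, which held 59.9% of the variance of log2 CPM. The same 3 libraries had the most Xist, the X-inactivation transcript of female cells. Xist stood at 1044, 45.6 and 47.2 CPM in knockout libraries and at 958.1, 106.1 and 509.7 CPM in wild-type libraries. The Y-linked genes looked for (Ddx3y, Uty, Kdm5d and Eif2s3y) were not among the genes analysed. Whether they had too few reads or were left out for another reason is not stated. A male depot in the label implies male animals, but Xist was counted in all 6 libraries. The sex of the animals could not be settled. Adipocyte markers were abundant in all libraries (Adipoq at 3351 CPM or more). Prmt5 itself stood at 14.8, 22.4 and 28.5 CPM in knockout libraries, against 37.5, 59.9 and 40.8 CPM in wild-type libraries.

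Ret, Ngfr and S100b stood higher in each knockout library than in any wild-type library. Gfra1, Gfra2, Ntrk2, Ntrk3 and Bdnf overlapped between the genotypes. In the batch-term fit Ret, Ngfr and S100b were called higher, so 3 of 8 genes, where 0.385% of all genes were called higher. All knockout libraries above all wild-type libraries was a pattern of 8.32% of all genes. The 3 genes were among those chosen with this difference known, so nothing is read from either share. In the genotype-only fit 0 of the 8 were called, and Ret, Ngfr and S100b had an unadjusted p under 0.05 with a positive fold change, as 5.26% of all genes did. DESeq2 on genotype alone called the same 3, where it called 1.2% of all genes higher.

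**Figure D1:**
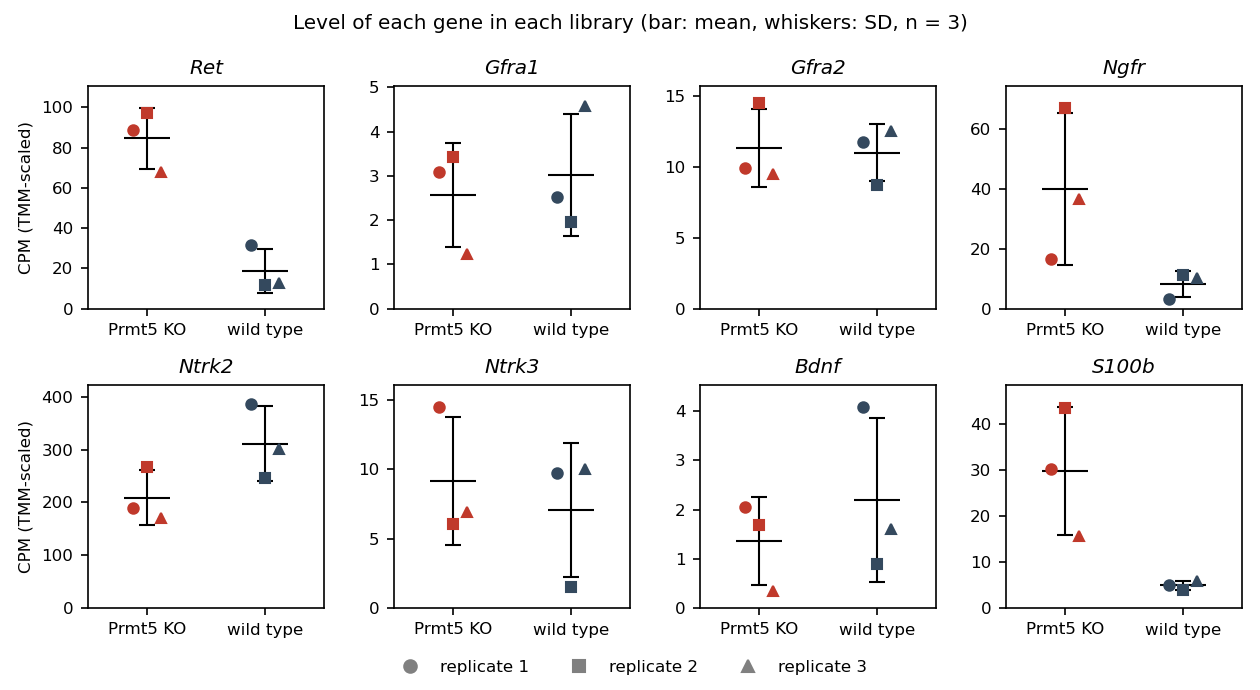
TMM-scaled CPM of each gene (y axis, starting at 0, a scale of its own per gene) in the 3 Prmt5 knockout and 3 wild-type libraries, with the mean as a bar, the SD as whiskers and the replicate number as the symbol. For Ret, Ngfr and S100b the lowest knockout library (67.8, 16.7 and 15.7 CPM) lay above the highest wild-type library (31.5, 11.3 and 5.77 CPM), and the other 5 genes overlapped.

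Ret encodes the signalling kinase of the GDNF receptor complex. It stood at 88.6, 97.3 and 67.8 CPM in knockout libraries, from 1813, 2136 and 1371 counts, against 31.5, 11.99 and 12.8 CPM in wild-type libraries, from 710, 308 and 344 counts. The 3 knockout libraries lay within 1.44-fold of each other, and wild-type replicate 1 stood 2.63-fold above wild-type replicate 2. The means were 84.6 ± 15.2 CPM in knockout and 18.8 ± 11.04 CPM in wild type (SD, n = 3 each), a 4.51-fold difference. The lowest knockout library was 2.15-fold above the highest wild-type library. The log2 fold change was 2.17 (SE 0.43, edgeR adjusted p = 0.316) with genotype only and 2.32 (SE 0.32, edgeR adjusted p = 0.0321) with the batch term. It was smaller within replicate 1 (1.49) than within replicates 2 and 3 (2.71). These values cover the whole tissue, in which more cells of a type and more RNA per cell cannot be told apart.

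The GFRα co-receptor genes overlapped between the genotypes. Gfra2, which encodes the co-receptor preferred by neurturin, stood at 9.92, 14.5 and 9.49 CPM in knockout libraries, against 11.8, 8.68 and 12.5 CPM in wild-type libraries. The 2 ranges lay almost on top of each other, and the log2 fold change was 0.04 (SE 0.32, edgeR adjusted p = 0.956). Gfra1, which encodes the co-receptor of GDNF, was scarce at 3.08, 3.42 and 1.24 CPM in knockout libraries and 2.53, 1.95 and 4.58 CPM in wild-type libraries. Knockout replicate 3 was the lowest of the 6 libraries and wild-type replicate 3 the highest, and the log2 fold change of -0.23 had an SE of 0.55 (edgeR adjusted p = 0.852).

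Ngfr encodes p75, which binds all neurotrophins and is made by Schwann cells, neurons and some stromal cells. It stood at 16.7, 66.9 and 36.4 CPM in knockout libraries, from 341, 1468 and 737 counts, against 3.33, 11.3 and 10.3 CPM in wild-type libraries, from 75, 290 and 276 counts. Replicate 1 was the lowest library of each genotype, and the highest knockout library was 4.01-fold above the lowest. The means were 40.0 ± 25.3 CPM in knockout and 8.30 ± 4.33 CPM in wild type (SD, n = 3 each), and the lowest knockout library lay 1.48-fold above the highest wild-type library. The log2 fold change was 2.27 (SE 0.62, edgeR adjusted p = 0.393) with genotype only. With the batch term it was 2.28 with a smaller SE of 0.28 (edgeR adjusted p = 0.0234). The plain difference of mean log2 CPM was 2.32 within replicate 1 and 2.19 within replicates 2 and 3.

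The Trk receptor genes overlapped between the genotypes too. Ntrk2, the TrkB gene, was the most abundant of the 8 by count, at 188.8, 267.8 and 170.6 CPM in knockout libraries and 386.7, 246.0 and 300.4 CPM in wild-type libraries. Knockout replicate 2 lay above wild-type replicate 2 and the other knockout libraries lay below all wild-type libraries. Its log2 fold change was -0.57 (SE 0.31, edgeR adjusted p = 0.593), and 0.0043 with loess offsets for exonic length and GC content. Its exonic length, 14037 bases, was the longest of the 8. The counts are per gene, so full-length and truncated TrkB cannot be told apart.

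Ntrk3, the TrkC gene, stood at 14.5, 6.06 and 6.92 CPM in knockout libraries and 9.72, 1.48 and 10.05 CPM in wild-type libraries. Its 3 highest libraries were knockout replicate 1 and wild-type replicates 1 and 3, the 3 with the most Xist. Wild-type replicate 2, with 38 counts, was the lowest, and without it the log2 fold change of 0.37 (SE 0.69, edgeR adjusted p = 0.808) became -0.11. Without knockout replicate 1, the highest, it became -0.12, and without wild-type replicate 3 it became 0.72. Length and GC offsets gave 1.00 (edgeR adjusted p = 0.392).

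Bdnf, the ligand of TrkB, was the scarcest of the 8, at 2.05, 1.69 and 0.346 CPM in knockout libraries and 4.08, 0.896 and 1.600 CPM in wild-type libraries. Knockout replicate 3 rested on 7 counts and wild-type replicate 1, the highest, on 92. The log2 fold change of -0.68 (SE 0.79, edgeR adjusted p = 0.706) was 0.13 without wild-type replicate 1. The gene has 7 start sites in the RefSeq promoter table, and counts per gene do not part them.

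S100b stood at 30.3, 43.4 and 15.7 CPM in knockout libraries, from 620, 953 and 317 counts, against 5.06, 3.93 and 5.77 CPM in wild-type libraries, from 114, 101 and 155 counts. The wild-type libraries lay within 1.47-fold of each other and the knockout libraries within 2.77-fold. The means were 29.8 ± 13.9 CPM in knockout and 4.92 ± 0.93 CPM in wild type (SD, n = 3 each), a 6.06-fold difference, and the lowest knockout library was 2.72-fold above the highest wild-type library. The log2 fold change was 2.60 in each fit, with an SE of 0.43 and an edgeR adjusted p of 0.202 for genotype only, and an SE of 0.40 and an edgeR adjusted p of 0.0454 with the batch term. Within replicate 1 the plain difference of mean log2 CPM, a measure outside the fits, was 2.58, and within replicates 2 and 3 it was 2.45.

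**Figure D2:**
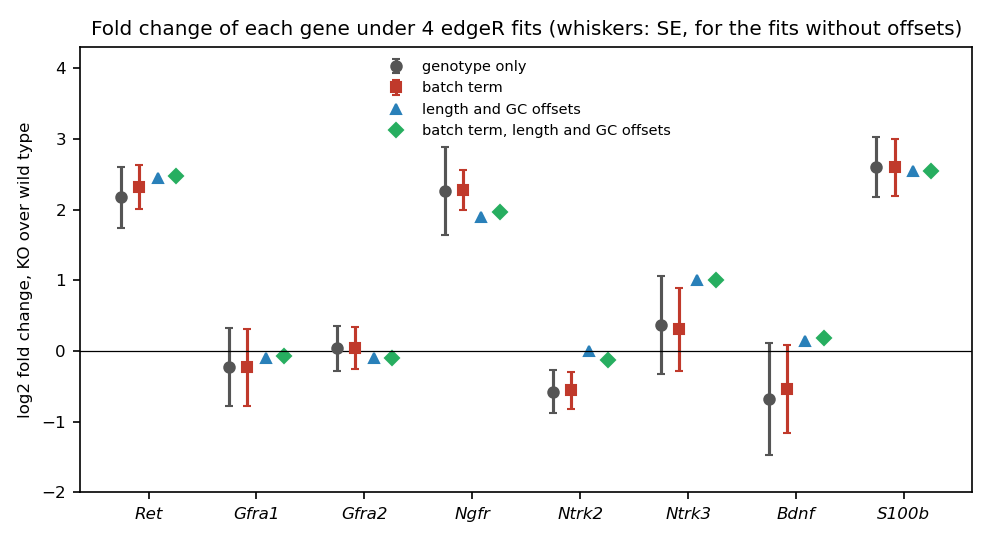
Log2 fold change, knockout over wild type (y axis), of each of the 8 genes in 4 edgeR fits, with SE whiskers for the fits without offsets. Ret, Ngfr and S100b lay between 1.90 and 2.60 in all 4 fits, while Gfra2, Ntrk2 and Bdnf had values on either side of 0.

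Per kilobase of exon, the order of the genes differed between the genotypes. In knockout libraries S100b averaged 17.9 ± 8.36 RPKM (CPM per kilobase of exon), Ntrk2 14.9 ± 3.68, Ngfr 11.7 ± 7.43 and Ret 11.5 ± 2.07 RPKM, which overlapped each other. Gfra2 (3.24 ± 0.79 RPKM) and Ntrk3 (1.77 ± 0.90 RPKM) followed, then Gfra1 (0.543 ± 0.247 RPKM) and Bdnf (0.203 ± 0.134 RPKM). In wild-type libraries Ntrk2 led alone at 22.2 ± 5.05 RPKM. Gfra2 (3.15 ± 0.58), S100b (2.96 ± 0.56), Ret (2.56 ± 1.504) and Ngfr (2.44 ± 1.27 RPKM) followed within their spread of each other. Ntrk3 (1.37 ± 0.94), Gfra1 (0.635 ± 0.291) and Bdnf (0.327 ± 0.249 RPKM) were the lowest in wild type and overlapped between neighbours.

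Ret, Ngfr and S100b did not share 1 profile over the libraries. Likeness was measured as the root mean square difference between log2 CPM profiles centred on their own mean over the 6 libraries. The genotype difference is part of such a profile, so a near gene has a similar one by construction. By this measure Ret and S100b differed by 0.53, Ngfr and S100b by 0.89 and Ret and Ngfr by 1.16. Ngfr was thus about as far from Ret as Ntrk3 was, at 1.18. The 3 genes of the table nearest to Ret were Ap3b2 (0.22), a subunit gene of the neuronal AP-3 complex, the potassium channel gene Kcnh2 (0.24) and Vsig8 (0.30). Kcnh2 stood at 70.4, 71.0 and 51.3 CPM in knockout libraries, against 15.4, 8.10 and 7.74 CPM in wild-type libraries. Nearest to Ngfr were the interferon-induced gene Ifi27l2a (0.25), the neutrophil protease gene Prtn3 (0.26) and Wfdc21 (0.28). Nearest to S100b were the histone gene Hist1h4c (0.25), the proton pump gene Atp6v1c2 (0.36) and the acute-phase gene Saa3 (0.38). Saa3 stood at 89.3, 74.3 and 41.9 CPM in knockout libraries and 11.9, 12.1 and 8.86 CPM in wild-type libraries. Hist1h4c and Saa3 have close relatives with which they may share reads, which makes their counts uncertain.

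By the same construction the 5 other genes had neighbours with smaller genotype differences, and nothing is read from that. Near to Gfra1 were Emb (0.17) and Lrrc9 (0.22), and nearest to Gfra2 were Calu, Zkscan4 and Endou (0.069 to 0.10). Ntrk2 had Trim16, Acad11 and Dpysl3 (0.092 to 0.13). Ntrk3 was nearest to Bub1, Sgol2a and Eya1 (0.38 each), the first of them a mitotic checkpoint gene. Bdnf was nearest to the axon guidance gene Slit2 (0.23), the EGF receptor ligand gene Btc (0.25) and Pgbd1 (0.30).

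Other genes of these pathways, 109 on 8 lists, asked whether ligands, adaptors and induced genes differed too. Of these, 90 were tested. None was called in the batch-term fit (0 higher and 0 lower, smallest edgeR adjusted p = 0.089, Ntn4) or in the genotype-only fit, and 7 had an unadjusted p under 0.05 by genotype alone, where 8.63% of all genes did. In the batch-term fit 28 of the 90 did, where 24.5% of all genes did. DESeq2 called 1, Dusp4. In 7 of the 90 all knockout libraries lay above all wild-type libraries and in 10 they lay below, where 8.32% and 6.2% of all genes did. The log2 fold change lay above 0 for 39 of the 90, with a median of -0.15, against 49% of all genes and a median of -0.02.

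Ligands were scarce. Of the list of GDNF family ligands and other RET co-receptors, 5 of 8 genes were tested, with a median of -0.096 in the genotype-only fit. In that fit 2 of the 5, Gdf15 and Nrtn, lay above 0. In the batch-term fit 3 of the 5 did, with a median of 0.096. Gdf15, a distant relative that signals through RET with a co-receptor of the hindbrain and is induced by cell stress, stood at 2.88, 6.38 and 5.19 CPM in knockout libraries, against 1.11, 2.34 and 0.484 CPM in wild-type libraries. All its knockout libraries lay above all wild-type libraries, with a log2 fold change of 1.82 in the batch-term fit (edgeR adjusted p = 0.149). Nrtn, the neurturin gene, stood at 2.00, 3.42 and 7.12 CPM in knockout libraries and 0.799, 3.08 and 2.64 CPM in wild-type libraries (edgeR batch-term adjusted p = 0.2). Gdnf itself was at 0.489, 0.683 and 0.0495 CPM in knockout libraries and 1.598, 0.0389 and 1.12 CPM in wild-type libraries.

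Among neurotrophin ligands and their other receptors, 5 of 8 genes were tested, with a median of 0.01, and their libraries overlapped in all 5. Ntf5, the neurotrophin-4 gene and a TrkB ligand, did not pass 0.935 CPM in any library (batch-term log2 fold change -0.66, edgeR adjusted p = 0.485). Sort1 encodes sortilin, which pairs with p75 to bind pro-neurotrophins. It stood at 368.4, 401.5 and 344.5 CPM in knockout libraries and 562.2, 403.7 and 316.4 CPM in wild-type libraries. The 3 knockout libraries of Sort1 lay within the range of the wild type.

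Adaptors and kinases downstream of RET and Trk lay evenly around 0, with 13 of 27 above it and a median of -0.0027. All knockout libraries lay above all wild-type libraries for 4 of the 27 and below for 1, where 8.32% and 6.2% of all genes did. Hras, a RAS gene between receptor and ERK, stood at 63.0, 177.6 and 202.5 CPM in knockout libraries and 40.9, 122.0 and 78.6 CPM in wild-type libraries (batch-term log2 fold change 0.82, edgeR adjusted p = 0.125). Pik3r1, the regulatory subunit gene of PI3-kinase, had a batch-term log2 fold change of -1.36 (edgeR adjusted p = 0.129). It had 181.0, 61.4 and 48.0 CPM in knockout libraries and 250.9, 115.9 and 263.1 CPM in wild-type libraries.

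Genes that ERK signalling induces, many of which feed back on it, all lay below 0. Of 11 tested, 0 had a positive log2 fold change, where 49% of all genes did. The median was -0.61, and for 5 of the 11 all knockout libraries lay below all wild-type libraries, where 6.2% of all genes did. None was called by edgeR in either fit. The phosphatase gene Dusp4 stood at 19.1, 17.6 and 13.1 CPM in knockout libraries, against 72.8, 46.5 and 24.6 CPM in wild-type libraries (batch-term log2 fold change -1.45, edgeR adjusted p = 0.0899). The early growth response gene Egr1 stood at 13.9, 18.7 and 16.5 CPM in knockout libraries, against 92.3, 42.9 and 19.6 CPM in wild-type libraries (-1.45, edgeR adjusted p = 0.144). For Dusp4 and Egr1 wild-type replicate 1 was the highest and wild-type replicate 3 the lowest of the wild type. The other 3 without overlap were Dusp6, Spry1 and Phlda1, with log2 fold changes of -0.63, -0.61 and -0.71, named after their values were seen.

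**Figure D3:**
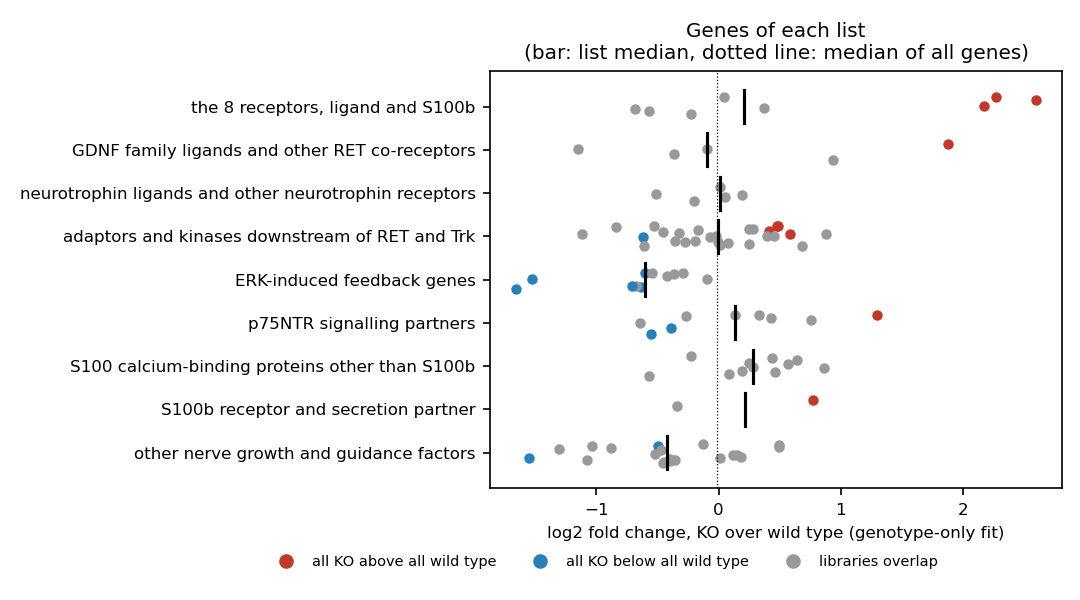
Genotype-only log2 fold change, knockout over wild type (x axis), of every tested gene of the 8 genes described and of the 8 pathway lists (rows), coloured by whether the libraries of the genotypes overlapped, with the list median as a bar and the median of all genes as a dotted line. All 11 ERK-induced genes lay below 0, and Ret, Ngfr and S100b lay to the right of all other genes shown.

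Partners of p75 had a median of 0.13 over 9 tested. Lingo1, a co-receptor of p75 in neurons, stood at 1.17, 1.23 and 0.791 CPM in knockout libraries, against 0.533, 0.389 and 0.372 CPM in wild-type libraries (batch-term log2 fold change 1.31, edgeR adjusted p = 0.189). At these levels the libraries did not overlap. Lingo1 was the 1 of the 9 with all knockout libraries above all wild-type libraries, a pattern of 8.32% of all genes. Irak1 and Ripk2, kinase genes of innate immune signalling, lay lower in all knockout libraries than in every wild-type one. They were the 2 of the 9 to do so, where 6.2% of all genes did. Irak1 stood at 74.4, 85.8 and 78.7 CPM in knockout libraries, against 95.6, 111.7 and 105.3 CPM in wild-type libraries (batch-term log2 fold change -0.39, edgeR adjusted p = 0.225). Ripk2 stood at 14.9, 12.1 and 6.23 CPM in knockout libraries, against 16.95, 14.99 and 16.7 CPM in wild-type libraries (-0.59, edgeR adjusted p = 0.262). Traf6, an adaptor of p75 and of innate immune receptors, had a log2 fold change of -0.76 there (edgeR adjusted p = 0.175).

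S100 genes other than S100b lay closer to 0. Of 11 tested, which include the S100P-binding protein gene S100pbp, 9 lay above 0 with a median of 0.28, and the libraries overlapped in all 11. The median became -0.11 with length and GC offsets. The smallest p was that of S100a16, at 151.4, 359.8 and 381.4 CPM in knockout libraries and 87.7, 237.9 and 165.2 CPM in wild-type libraries (batch-term log2 fold change 0.85, edgeR adjusted p = 0.107). S100a4 had 0.54 (edgeR adjusted p = 0.191). Clstn3 encodes calsyntenin-3, a form of which helps brown adipocytes of mice release S100B. It stood at 121.3, 101.7 and 117.1 CPM in knockout libraries, against 39.8, 97.3 and 61.7 CPM in wild-type libraries (batch-term log2 fold change 0.84, edgeR adjusted p = 0.17). Its lowest knockout library was barely above wild-type replicate 2. Ager, the gene of the RAGE receptor that binds S100B, reached at most 1.76 CPM in any library (-0.58, edgeR adjusted p = 0.566).

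Other nerve growth and guidance genes lay mostly below 0, with 6 of 20 above it and a median of -0.43, where 49% of all genes lay above it. The median became -0.25 with length and GC offsets. The netrin gene Ntn4 stood at 5.42, 3.96 and 2.42 CPM in knockout libraries, against 17.1, 7.40 and 10.3 CPM in wild-type libraries (batch-term log2 fold change -1.53, edgeR adjusted p = 0.089). The semaphorin gene Sema3c had -1.15 (edgeR adjusted p = 0.158), and its libraries overlapped.

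Ngfr and S100b are also known as genes of Schwann cells, and other markers of these cells are given here. The part of Schwann cells in the levels of Ngfr and S100b was not tested. Of 14 Schwann cell and glial markers 11 were tested, and 2 lay above 0 with a median of -0.55. Their summed level ran from 337.9 to 367.9 CPM in knockout libraries and from 368.1 to 479.1 CPM in wild-type libraries. The highest knockout library and the lowest wild-type library thus almost touched. For 0 of the 11 genes did the libraries separate in either direction, where 8.32% of all genes separated upward and 6.2% downward. Most of that sum came from Pmp22, Mbp and Scn7a, which other cells make too. Sox10, the defining factor of Schwann cells, stood at 1.76, 0.956 and 1.93 CPM in knockout libraries and 2.93, 1.52 and 1.30 CPM in wild-type libraries. The neuron list had 6 of 14 tested, and its sum of 54.7 to 75.1 CPM in knockout libraries overlapped the 44.2 to 62.8 CPM of wild-type libraries. Syp, a synaptic vesicle gene, was the largest part of that sum in each library. It stood at 42.5, 57.6 and 43.9 CPM in knockout libraries, against 26.4, 30.2 and 18.2 CPM in wild-type libraries. The list otherwise lay mostly below 0, with 2 of 6 above it and a median of -0.58. Stmn2, a gene of growing axons, stood at 4.299, 4.97 and 10.1 CPM in knockout libraries, below all wild-type libraries at 12.2, 11.9 and 11.3 CPM. Gap43 of the same list went the other way, with a log2 fold change of 1.22. It stood at 2.59, 1.23 and 1.04 CPM in knockout libraries and 1.07, 0.389 and 0.633 CPM in wild-type libraries, which overlapped.

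Markers of other cells differed between the same libraries as S100b, Ret and Ngfr did. Brown and beige fat markers summed to 648.6 to 989.9 CPM in knockout libraries and 165.7 to 383.0 CPM in wild-type libraries. Of these, 10 of 10 lay above 0, where 49% of all genes did. For 5 of the 10 all knockout libraries lay above all wild-type libraries, where 8.32% of all genes did. Kcnk3 was the 1 of them called higher in the batch-term fit, where 0.385% of all genes were. Libraries of Ucp1 overlapped, at 278.2, 136.2 and 77.0 CPM in knockout and 14.7, 0.273 and 88.1 CPM in wild type. Pericyte and smooth muscle markers summed to 2006 to 4012 CPM in knockout libraries and 1214 to 1927 CPM in wild-type libraries, with 7 of 10 above 0. Tagln and Acta2 were the largest parts of that sum by mean in knockout, at 1028 and 833 CPM. Libraries of Acta2 overlapped between the genotypes. Rgs5, a pericyte gene, lay below 0. It stood at 69.4, 23.6 and 19.7 CPM in knockout libraries and 96.8, 23.7 and 84.4 CPM in wild-type libraries. Fat progenitor and fibroblast markers summed to 2890 to 3427 CPM in knockout libraries and 4227 to 6467 CPM in wild-type libraries, with 0 of 10 above 0. Macrophage and lymphocyte markers summed to 481.6 to 584.3 CPM in knockout libraries and 393.4 to 462.5 CPM in wild-type libraries. Of these, 7 of 8 lay above 0 with a median of 1.12. For 3 of them all knockout libraries lay above all wild-type libraries, as for 8.32% of all genes. Cd3e, a T cell receptor subunit gene, was among the 3, at 5.62, 4.47 and 11.2 CPM in knockout libraries, against 2.00, 3.04 and 2.72 CPM in wild-type libraries. The largest fold changes were those of the scarce lymphocyte genes Cd8a, Nkg7, Cd3e and Cd3g (log2 1.26 to 2.19, mean 2.92 to 8.09 CPM). Csf1r, the largest part of the sum, overlapped between the genotypes. Mrc1 was the 1 below 0, at 147.6, 57.4 and 46.1 CPM in knockout libraries and 143.3, 81.0 and 134.7 CPM in wild-type libraries. The part of these cell types in the levels of Ret, Ngfr and S100b was not tested.

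Other tissues that could lie in the sample gave no sum that separated the genotypes. Mesothelial markers (9 of 10 tested) summed to 97.1 to 496.4 CPM in knockout and 293.5 to 436.8 CPM in wild type, and knockout replicate 1 was the lowest. Mature adipocyte markers summed to 29562 to 45210 CPM in knockout and 40677 to 56818 CPM in wild type. Endothelial (688.0 to 897.4 and 673.7 to 1051 CPM), skeletal muscle (372.1 to 1810 and 144.4 to 2458 CPM) and lymph node (8.75 to 52.9 and 19.2 to 39.8 CPM) sums overlapped likewise between knockout and wild type. Epididymis markers (2 of 10 tested) summed to at most 3.33 CPM in knockout and 2.94 CPM in wild type. Epithelial markers (3 of 10 tested) summed to at most 34.8 CPM in knockout and 26.3 CPM in wild type.

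**Figure D4:**
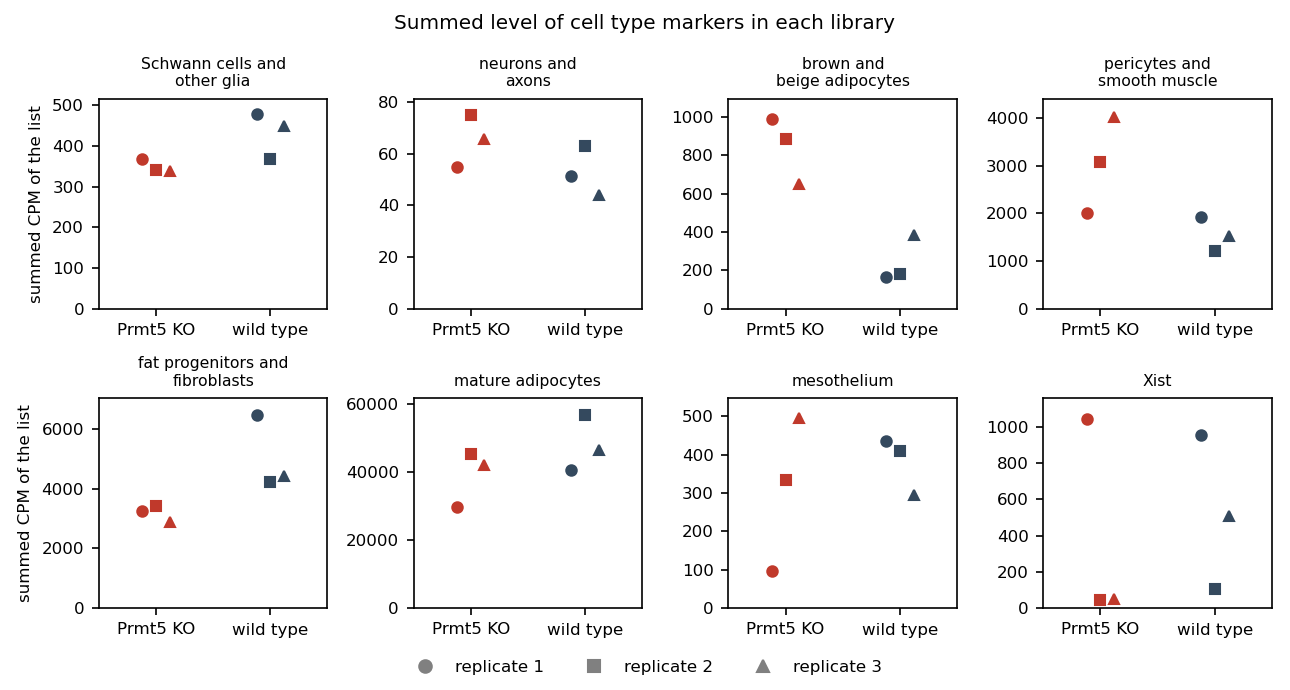
Summed TMM-scaled CPM of 7 marker lists, and Xist CPM, in each library (y axis, starting at 0), knockout left and wild type right, with the replicate number as the symbol. The sums of brown and beige markers and of pericyte and smooth muscle markers lay higher in all knockout libraries, and that of progenitor markers lower. Glial marker sums almost touched (367.9 CPM in knockout replicate 1 and 368.1 CPM in wild-type replicate 2). Xist was high in knockout replicate 1 and wild-type replicates 1 and 3.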

How the data were processed

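Genotype and replicate number of the 6 libraries (3 Prmt5 knockout, 3 wild type) come from the sample titles. TopHat2, HTSeq 0.6.1 and mm10 are named, without their roles, in the submitters' processing notes. Strand setting and annotation are not stated there. The authors deposited a single table of 14291 genes holding raw counts. Per the file headers, log2 RPKM (not used), log2 fold changes, p-values, adjusted p-values and exonic lengths by the authors stand beside them. The table holds no very low genes (every gene reached 0.606 CPM in at least 3 libraries), and filterByExpr removed 0 genes.

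All genes were tested on the deposited counts by edgeR 4.0.16 (R 4.3.3; TMM, glmQLFit, glmQLFTest), and as an alternative by DESeq2 1.42.0. The batch-term fit matched the deposited p-values with a median absolute log10 ratio of 8.3e-14, against 0.115 to 0.269 for other designs. The biological coefficient of variation was 0.435 for genotype only and 0.32 with the batch term. SEs follow from each fold change and its F statistic. Offsets were loess fits (span 0.5) on exonic length and on the GC content of the longest GENCODE M21 transcript, known for 13786 genes (96.5%). RPKM were computed from counts and deposited lengths, and profiles used a prior count of 0.5. The scripts were tested on simulated data.

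The genes and lists were chosen with earlier results of these data known. Named genes were the 8, Prmt5, any called pathway gene, the 2 of each pathway list with the smallest batch-term p, and the 3 nearest profiles of each of the 8, without unnamed gene models; a few genes are not reported here. Other genes of the lists (such as Gdnf, Sox10, Syp, Stmn2, Gap43, Irak1, Ripk2, Cd3e, Csf1r, Mrc1, Tagln, Acta2, Rgs5, Kcnk3, Ucp1 and Xist) were named after their values were seen. Other settings were RLE factors, no filter, a minimum of 10 counts throughout a genotype, a replicate block, each library left out, and replicates 2 and 3 alone.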

Additional observations from a re-analysis of the deposited data

How the results depend on the processing

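Ret, Ngfr and S100b had a positive log2 fold change in all settings run, and which of them was called depended on the setting. RLE factors called 1 gene in all (0 of the 8), while no filter and the count minimum called none. DESeq2 called 171 higher and 100 lower, with 1 other pathway gene lower and 5 marker genes higher and 4 lower, and called 3 of the 8: Ret 2.20, Ngfr 2.29 and S100b 2.61. The batch term called 55 and 17, with 1 marker gene higher and 3 of the 8 (Ret 2.32, Ngfr 2.28, S100b 2.60). Length and GC offsets called 11 and 3, and Ret alone of the 8 (2.44, 1 gene). With these offsets Gfra2 was -0.092, Ntrk2 0.0043 and Bdnf 0.14, each the other side of 0 from the genotype-only value, and Ntrk3 was 1.00. The batch term with the offsets called 199 and 136, with 3 other pathway genes lower and 2 marker genes higher and 5 lower, and called 3 of the 8 (Ret 2.47, Ngfr 1.97, S100b 2.54), and Gfra2 was -0.093 and Bdnf 0.18. Replicates 2 and 3 alone called 39 and 11, with 3 marker genes higher and 2 of the 8 (Ret 2.71, Ngfr 2.24).

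The replicate block called 40 higher and 17 lower, with 1 marker gene higher and 3 of the 8 (Ret 2.30, Ngfr 2.24, S100b 2.50). Same-numbered libraries correlated in their deviations at 0.62, 0.50 and -0.083 for numbers 1, 2 and 3, and knockout replicate 3 was closest to wild-type replicate 2, so the number is not taken as a pairing.

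With 1 library left out, genotype only or with the batch term, 0 to 111 genes were called higher and 0 to 94 lower, 0 to 2 other pathway genes lower, 0 to 7 marker genes higher and 0 to 5 lower, and 0 to 3 of the 8 higher. Genotype only called 32 higher and 10 lower without knockout replicate 1, and 0 without any other. With the batch term 0 were called without knockout replicate 2, and Ret was called in 4 of 6 such fits, Ngfr in 3 and S100b in 3. Over both sets Ret ran from 1.93 to 2.77, Ngfr from 1.68 to 2.62 and S100b from 2.08 to 2.92. Gfra1 ran from -0.63 to 0.25, Gfra2 from -0.20 to 0.18, Ntrk2 from -0.83 to -0.32, Ntrk3 from -0.13 to 1.37 and Bdnf from -1.41 to 0.13. A genotype left with a lone library within a batch was assumed to vary like the others. RLE factors moved each marker sum ratio by less than its spread. The causes were not tested. Genes with few counts, such as Bdnf and Gfra1, are the least precise.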
